A study of Homo sapiens with 16 samples.

Results

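The 10 genes described here encode the MYC, MAX and MXD transcription factor network: MYC, its dimerisation partner MAX, the MXD proteins MXD1, MXD3, MXD4 and MXI1, the MAX partners MNT and MGA, and the parallel pair MLX and MLXIP. They were chosen by symbol from the 58051 Ensembl identifiers of the expression table, and each symbol matched 1 identifier. RNA was sequenced from P493-6, an established human B cell line, in 4 groups of 4 libraries. The high MYC groups were grown in ordinary medium. The medium MYC groups were given 0.1 µg/mL doxycycline together with 1 µM β-estradiol, starting 24 h ahead of treatment. At each MYC level, 1 group then received 100 nM IMP1088, an inhibitor of N-myristoyltransferase (NMT), the enzyme that attaches myristate to proteins, and the other received DMSO, both for 24 h. Without doxycycline, MYC in P493-6 comes mostly from a transgene that this drug represses, and the viral factor EBNA2 in these cells depends on oestrogen. MYC level, the doxycycline and the estradiol therefore cannot be told apart in their effects, and reads from the transgene and from the cell's own MYC gene are added together. All groups share 1 cell line. The labels do not say that replicates were separate cultures, so p-values measure only the spread between these samples, which may be technical.

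MYC binds DNA at E-box sequences as a dimer with MAX and is known for raising the transcription of genes for ribosome production, nucleotide synthesis and glycolysis in proliferating B cells. MXD proteins and MNT bind MAX and the same E-boxes but recruit the SIN3 histone deacetylase complex, so they act as repressors, and MXD proteins are typically expressed as cells leave the cycle. MGA binds MAX within a variant Polycomb complex (PRC1.6), whereas MLX pairs with MLXIP, also called MondoA, which responds to glucose-derived metabolites, and can pair with MXD1, MXD4 and MNT.

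The canonical E-box CACGTG, the sequence these proteins bind, also stands beside an annotated start site of MXD4, MNT and MLX, whose windows are shown for that reason. Of the 9 members whose RefSeq promoter windows were examined (250 bases before to 50 after a start, GRCh38.p14), these 3 held the motif. Windows of MYC itself were not examined, so whether they hold the E-box is not given here. The motif is its own reverse complement and so reads the same on both strands. Among all 35116 windows of this length, 7.26% held it, and 12.9% of the 9888 tested genes with a window had it in at least 1. The windows are shown 5′ to 3′ on the strand of the gene, chr4:2262060-2262359 on the minus strand for MXD4, chr17:2401011-2401310 on the minus strand for MNT and chr17:42566850-42567149 on the plus strand for MLX, with the E-box in capitals.
MXD4: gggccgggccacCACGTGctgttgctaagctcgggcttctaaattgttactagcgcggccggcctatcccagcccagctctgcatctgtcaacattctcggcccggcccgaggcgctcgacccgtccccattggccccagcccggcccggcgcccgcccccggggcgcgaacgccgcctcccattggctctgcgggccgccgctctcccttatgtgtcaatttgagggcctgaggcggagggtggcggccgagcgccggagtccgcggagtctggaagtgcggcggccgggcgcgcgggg
MNT: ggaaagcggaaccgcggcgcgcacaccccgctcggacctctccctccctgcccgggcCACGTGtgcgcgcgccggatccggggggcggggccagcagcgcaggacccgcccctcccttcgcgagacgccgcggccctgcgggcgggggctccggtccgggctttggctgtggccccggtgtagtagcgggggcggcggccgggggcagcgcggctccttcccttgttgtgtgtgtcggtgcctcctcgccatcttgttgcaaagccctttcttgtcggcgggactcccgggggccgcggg
MLX: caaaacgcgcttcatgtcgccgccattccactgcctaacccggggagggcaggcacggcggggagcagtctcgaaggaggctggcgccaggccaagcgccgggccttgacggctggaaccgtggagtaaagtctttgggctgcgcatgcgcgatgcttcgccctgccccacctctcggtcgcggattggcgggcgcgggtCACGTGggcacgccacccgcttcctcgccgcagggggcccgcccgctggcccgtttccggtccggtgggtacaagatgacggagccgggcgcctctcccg
The first base of the E-box lies at -238 from the start in MXD4, at -193 in MNT and at -50 in MLX. The windows of MAX, MXD1, MXD3, MXI1, MGA and MLXIP did not hold these letters. A match describes the sequence and does not show binding. These 3 genes did not move in 1 direction between MYC levels, as given for each of them.

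Libraries held 8755296 to 13858534 recovered reads, with 18899 to 21081 genes above 0. All 8 B cell markers were detected, with summed normalized counts of 40456 to 42852 at high MYC with DMSO, 34076 to 35258 at high MYC with IMP1088, 62836 to 66718 at medium MYC with DMSO and 56771 to 58372 at medium MYC with IMP1088. Sums over 6 T cell markers were 57.2 to 108 at high MYC and 157 to 245 at medium MYC, and the corresponding ranges were 108 to 136 and 250.1 to 291 for 6 myeloid markers and 64.8 to 94.6 and 177 to 238 for 6 fibroblast and epithelial markers. Of the defining genes in these lists, CD3D, S100A8, COL3A1 and KRT19 had at most 3 reads in any library and KRT18 had none, whereas others were detected: CD3E reached 86 reads in a library, CD3G 33, LYZ 68 and EPCAM 83. TRAC, ITGAM and COL1A1 made up most of the medium MYC sums. EPCAM went the other way, with group means of 62.1 and 70.6 normalized counts at high MYC and 13.1 and 18.2 at medium MYC, with DMSO and IMP1088 in turn. The marker sums move with MYC level, but not every marker follows its sum. With DMSO, CD79A went from 3096 at high to 2854 at medium MYC and CD79B from 1574 to 1464, while all other B cell markers rose. CD3G went from 28.7 to 21.6, while the other T cell markers were higher at medium MYC. The part of these markers in the results was not tested. Normalized counts are relative within each library, so fewer cells of a kind and less RNA per cell cannot be told apart.

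Between MYC levels every member of the network changed, and at medium MYC the normalized counts of 7 members were lower and those of 3 higher. These counts are relative within each library and do not measure RNA per cell. In DMSO, MYC, MXI1, MNT, MGA, MAX, MLXIP and MLX fell and MXD1, MXD3 and MXD4 rose from high to medium MYC, with limma adjusted p-values under 0.05 over the 13765 genes tested (those whose mean reached 10 normalized counts). In that comparison 76.2% of all tested genes were called, 38.9% higher and 37.3% lower, so a change in all 10 members stands against a high background. MYC is among these members, and its fall was set by the design. The same 7 fell and the same 3 rose between the IMP1088 groups, where 77.5% of tested genes were called, 39.7% higher and 37.8% lower. Libraries of high and medium MYC did not overlap for 9 members in DMSO and for all 10 with IMP1088, beside 69.2% and 72.6% of all tested genes. The median change of the 10 members was -0.58 on the log2 scale in DMSO and -0.68 with IMP1088, beside 0.0174 and 0.0210 over all tested genes. Changes are on the scale of log2(normalized count + 1), medium minus high or IMP1088 minus DMSO.

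With IMP1088, 5 members changed at high MYC and 4 at medium MYC, and MYC and MXI1 rose at both levels. At high MYC the inhibitor raised MYC, MGA, MXI1 and MNT and lowered MXD3, where 26.8% of tested genes were called, 10.5% higher and 16.3% lower. At medium MYC it raised MYC, MXD1 and MXI1 and lowered MLX, where 26.3% were called, 11.7% higher and 14.6% lower. Treated and untreated libraries did not overlap for 4 members at high MYC and for 5 at medium MYC, beside 26.7% and 27.9% of all tested genes. The other 5 and 6 members did not pass the threshold. The median change of the members was 0.0525 at high and 0.0914 at medium MYC, beside -0.0199 and -0.00623 over all tested genes. A test of the difference between these responses called MGA alone, where 8.63% of tested genes were called, 3.31% with a higher and 5.33% with a lower value at high MYC. The count was 3 without high MYC DMSO replicate 1 and 2 without high MYC DMSO replicate 3 or high MYC IMP1088 replicate 1 or 4. Comparisons that use the same DMSO libraries are not independent of each other.

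**Figure D1:**
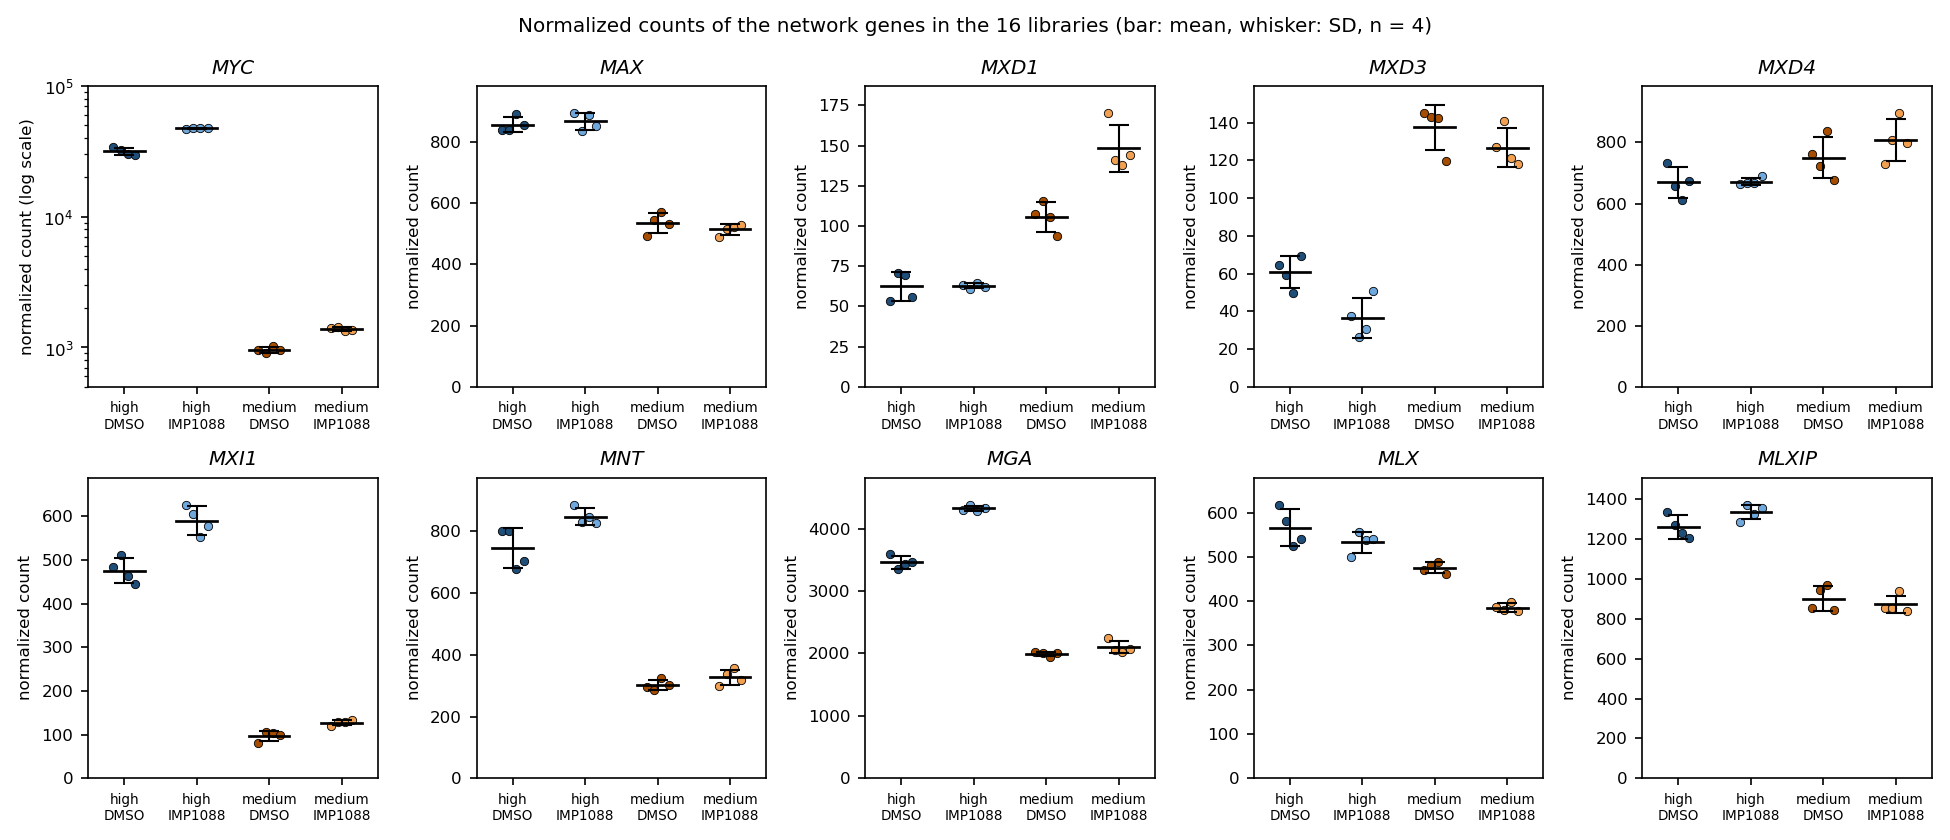
Normalized counts of the 10 network genes (vertical axis, linear from 0 except for MYC, which has a log scale) in the 4 groups by MYC level and treatment (horizontal axis). Points are single libraries, bars are means and whiskers are SD (n = 4). The libraries of high and medium MYC stand apart in DMSO for every gene but MXD4.

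By normalized counts MYC was the most abundant member by far at high MYC. At medium MYC its mean was below that of MGA, 959 against 1990 with DMSO and 1382 against 2100 with IMP1088. In high MYC cells with DMSO, MYC stood at 34376, 32276, 30251 and 29693 normalized counts in replicates 1 to 4. With IMP1088 it stood at 46843, 47645, 48049 and 47631. At medium MYC it stood at 959.6, 904, 1022 and 949 with DMSO and at 1400.4, 1444, 1328 and 1356 with IMP1088. No libraries of different groups overlapped, and every IMP1088 library lay above every DMSO library of the same MYC level. The medium MYC level in DMSO was 33-fold lower than the high level (log2 change -5.04, SE 0.0410, adjusted p = 7.37e-27), and with IMP1088 it was 34.4-fold lower (adjusted p = 5.75e-27). MYC is the gene whose level defines the groups, so this fall was set by the design and is not a separate finding. IMP1088 raised MYC RNA 1.5-fold at high MYC (log2 change 0.59, SE 0.0410, adjusted p = 7.24e-10) and 1.44-fold at medium MYC (log2 change 0.53, SE 0.0410, adjusted p = 2.74e-09). The difference between these responses was 0.0614 with an interval (95%) of -0.0594 to 0.18 and did not pass the test (adjusted p = 0.605). The MYC gene lies on chromosome 8 at 127735434 to 127741434 of GRCh38, and its exons overlap those of no other annotated gene.

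The other MYC family genes were low or undetected. MYCN, the family member of neural tissues, had no read in any library, which allows up to 3 reads in each. MYCL, the third family member, averaged 4.57 ± 0.756 normalized counts at high MYC with DMSO, 8.45 ± 2.59 with IMP1088, 34.5 ± 6.21 at medium MYC with DMSO and 40.2 ± 7.54 with IMP1088 (SD, n = 4 each). It rose with the lower MYC level (log2 change 2.67, SE 0.23, adjusted p = 7.90e-10) and with IMP1088 at high MYC (log2 change 0.74, SE 0.23, adjusted p = 0.0216), from 4 to 5 reads per library at high MYC with DMSO. MYCL passed the filter on the mean only through the medium MYC groups. A gene this low at high MYC could be tested only if it was higher at medium MYC. The rise of MYCL between MYC levels is therefore not independent of the filter. At medium MYC its change with IMP1088 was 0.21 and did not pass (adjusted p = 0.547).

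MAX, the shared partner of MYC, MXD proteins, MNT and MGA (chromosome 14, 65006174 to 65102695, minus strand), was lower at medium MYC and did not pass the test for IMP1088 at either level. With DMSO it stood at 839.8, 840.0, 891 and 856 normalized counts at high MYC and at 493, 545, 569.7 and 531 at medium MYC. With IMP1088 it stood at 894, 835, 888 and 851 and 490.5, 516, 523 and 527. High and medium MYC libraries stood apart, whereas the DMSO and IMP1088 libraries of each level overlapped. MAX fell 1.6-fold from high to medium MYC in DMSO (log2 change -0.68, SE 0.0448, adjusted p = 7.29e-12). The IMP1088 effect was 0.0174 at high MYC (interval -0.0760 to 0.11) and -0.0554 at medium MYC (interval -0.15 to 0.0379), with adjusted p of 0.820 and 0.407.

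The MXD repressors did not move as a block: MXI1 fell with MYC level while MXD1, MXD3 and MXD4 rose. MXI1 (chromosome 10, 110207605 to 110287365, plus strand) stood at 484, 511, 464 and 444 normalized counts at high MYC with DMSO and at 626, 606, 552 and 577 with IMP1088. In medium MYC cells the values were 80.3, 105, 104 and 99.3 with DMSO and 119, 129, 128 and 133 with IMP1088. All 4 groups stood apart, in the same order as MYC itself. MXI1 was 4.87-fold lower at medium than at high MYC in DMSO (log2 change -2.28, SE 0.0786, adjusted p = 7.55e-17), the largest fall in the network after MYC. IMP1088 raised it by 0.31 ± 0.0786 (SE, adjusted p = 0.00506) at high and by 0.39 ± 0.0786 (SE, adjusted p = 6.41e-04) at medium MYC.

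MXD1, the founding member of the family, known as MAD1 (chromosome 2, 69897688 to 69942945, plus strand), stood at 53.5, 70.8, 69.5 and 55.9 normalized counts at high MYC with DMSO and at 63.4, 61, 64.6 and 62.4 with IMP1088. The medium MYC libraries gave 107, 116, 106 and 93.6 with DMSO and 170.1, 141, 138 and 144 with IMP1088. The high MYC groups overlapped, and each medium MYC group lay above them and apart from the other. MXD1 rose 1.69-fold from high to medium MYC in DMSO (log2 change 0.76, SE 0.11, adjusted p = 2.53e-06), and IMP1088 raised it 1.4-fold at medium MYC (log2 change 0.48, SE 0.11, adjusted p = 0.00220). At high MYC its change with IMP1088 was 0.0207 (interval -0.21 to 0.25). The difference between the responses, -0.46 (interval -0.79 to -0.14), did not pass after adjustment (adjusted p = 0.0735), but passed without high MYC DMSO replicate 1 (-0.53, adjusted p = 0.0367).

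MXD3 (chromosome 5, 177301461 to 177312757, minus strand), the family member linked to cells in S phase, moved most among those that rose. It stood at 64.8, 59.5, 49.7 and 69.3 normalized counts at high MYC with DMSO and at 37.6, 26.6, 30.5 and 50.9 with IMP1088, against 145, 143, 143 and 119.8 and 127, 141, 121 and 118 at medium MYC. Medium MYC libraries all lay above high MYC libraries, and the treated and untreated libraries of each level overlapped. MXD3 rose 2.25-fold with the lower MYC level in DMSO (log2 change 1.17, SE 0.16, adjusted p = 6.01e-07) and 3.51-fold with IMP1088 (adjusted p = 6.15e-10). IMP1088 lowered it 1.69-fold at high MYC (log2 change -0.75, SE 0.16, adjusted p = 8.97e-04), while the change at medium MYC was -0.12 (interval -0.44 to 0.21). The difference between the responses was -0.64 (interval -1.1 to -0.18, adjusted p = 0.0785). It passed without high MYC DMSO replicate 3 (-0.73, adjusted p = 0.0444) and without high MYC IMP1088 replicate 4 (-0.81, adjusted p = 0.00863). Reads at MXD3 carry an added doubt, because 18.0% of its exon bases overlap RAB24 on the same strand and 22.5% overlap PRELID1 on the other. Between MYC levels in DMSO RAB24 changed by 0.42 and PRELID1 by -0.26, and with IMP1088 at high MYC they changed by -0.0987 and -0.0448.

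MXD4 (chromosome 4, 2247432 to 2262294, minus strand), a family member found in many tissues, had the smallest change of the network between MYC levels. It stood at 734, 658, 611 and 674 normalized counts at high MYC with DMSO and at 664, 667, 666 and 689 with IMP1088. At medium MYC it stood at 760.4, 723, 838 and 678 with DMSO and at 729, 807, 895 and 798 with IMP1088. Groups next to each other in level all overlapped. The rise with the lower MYC level was 1.12-fold in DMSO (log2 change 0.16, SE 0.0644, adjusted p = 0.0270) and 1.2-fold with IMP1088 (log2 change 0.26, SE 0.0644, adjusted p = 9.30e-04). The first of these calls was lost after a correction for GC content (0.0421, adjusted p = 0.414) and without high MYC DMSO replicates 2 or 3 or medium MYC DMSO replicates 1 or 3 in turn (adjusted p = 0.0556, 0.106, 0.0568 and 0.12). Its changes with IMP1088, 0.00723 at high and 0.11 at medium MYC, did not pass (adjusted p = 0.952 and 0.249).

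MNT, the MAX partner that is expressed in growing as well as resting cells and represses MYC targets (chromosome 17, 2384060 to 2401118, minus strand), went down with MYC. It stood at 799.9, 802, 679 and 705 normalized counts at high MYC with DMSO and at 886, 832, 846 and 826 with IMP1088. In medium MYC cells the values were 296, 288, 324 and 304 with DMSO and 299, 337, 356 and 319.6 with IMP1088. High and medium libraries were far apart, and the medium MYC groups overlapped with each other. MNT was 2.46-fold lower at medium than at high MYC in DMSO (log2 change -1.3, SE 0.0612, adjusted p = 2.08e-14) and 2.58-fold lower with IMP1088. IMP1088 raised it at high MYC by 0.19 ± 0.0612 (SE, adjusted p = 0.0278), a call that was lost without high MYC DMSO replicate 3 or 4 or high MYC IMP1088 replicate 1 or 3 (adjusted p = 0.101, 0.086, 0.0848 and 0.0534). At medium MYC the change was 0.11 (interval -0.0143 to 0.24, adjusted p = 0.191).

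MGA, the largest protein of the network and the scaffold of PRC1.6 (chromosome 15, 41621224 to 41773081, plus strand), was the member whose response to IMP1088 differed between MYC levels. It stood at 3589, 3351, 3430.2 and 3464 normalized counts at high MYC with DMSO and at 4299, 4379, 4284 and 4327 with IMP1088. The medium MYC libraries gave 2017, 2004, 1938 and 1999.9 with DMSO and 2240.4, 2057, 2030.4 and 2070.1 with IMP1088. Each of the 4 groups stood apart, though the lowest IMP1088 and the highest DMSO library at medium MYC were close. IMP1088 raised MGA 1.25-fold at high MYC (log2 change 0.32, SE 0.0312, adjusted p = 9.63e-08). At medium MYC its change was 0.0764 (interval 0.0113 to 0.14, adjusted p = 0.0784), and it passed with equal library totals (0.10, adjusted p = 0.0218). The response at high MYC exceeded that at medium MYC by 0.25 ± 0.0442 (SE, adjusted p = 7.86e-04). MGA fell 1.74-fold from high to medium MYC in DMSO (log2 change -0.80, SE 0.0312, adjusted p = 7.79e-16) and 2.06-fold with IMP1088 (adjusted p = 6.46e-18).

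In the MLX branch both genes were lower at medium MYC. MLX (chromosome 17, 42567068 to 42573239, plus strand) stood at 618, 581, 524 and 539.8 normalized counts at high MYC with DMSO and at 500.1, 556, 538 and 539 with IMP1088. At medium MYC it stood at 471, 481, 488 and 460.4 with DMSO and at 388, 379, 398 and 377 with IMP1088, its lowest group. The high MYC groups overlapped and the medium MYC groups stood apart. MLX fell by 0.25 ± 0.0512 (SE) on the log2 scale from high to medium MYC in DMSO (adjusted p = 1.71e-04). IMP1088 lowered it 1.23-fold at medium MYC (log2 change -0.30, SE 0.0512, adjusted p = 1.18e-04), against a change of -0.0830 at high MYC (interval -0.19 to 0.0237). The difference between the responses was 0.22 (interval 0.0672 to 0.37, adjusted p = 0.0685). It passed without high MYC DMSO replicate 1 (adjusted p = 0.0185) and without high MYC IMP1088 replicate 1 (adjusted p = 0.0425). Of its exon bases 18.1% overlap PSMC3IP on the other strand, which changed by 0.42 between MYC levels in DMSO and by 0.12 with IMP1088 at medium MYC.

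MLXIP, or MondoA, the glucose-sensing partner of MLX (chromosome 12, 122078722 to 122147347, plus strand), stood at 1338, 1271, 1228 and 1204 normalized counts at high MYC with DMSO and at 1288, 1372, 1326 and 1355 with IMP1088. In medium MYC cells the values were 852, 943, 968 and 843 with DMSO and 855, 854, 938 and 842 with IMP1088. MYC levels stood apart and treatments overlapped at both levels. It fell 1.4-fold with the lower MYC level in DMSO (log2 change -0.48, SE 0.0481, adjusted p = 7.14e-09). Its changes with IMP1088 were 0.0842 at high MYC (interval -0.0159 to 0.18) and -0.0462 at medium MYC (interval -0.15 to 0.0539). MLXIPL, the liver-type paralogue known as ChREBP, had 2 reads in 1 medium MYC IMP1088 library and none in the others.

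**Figure D2:**
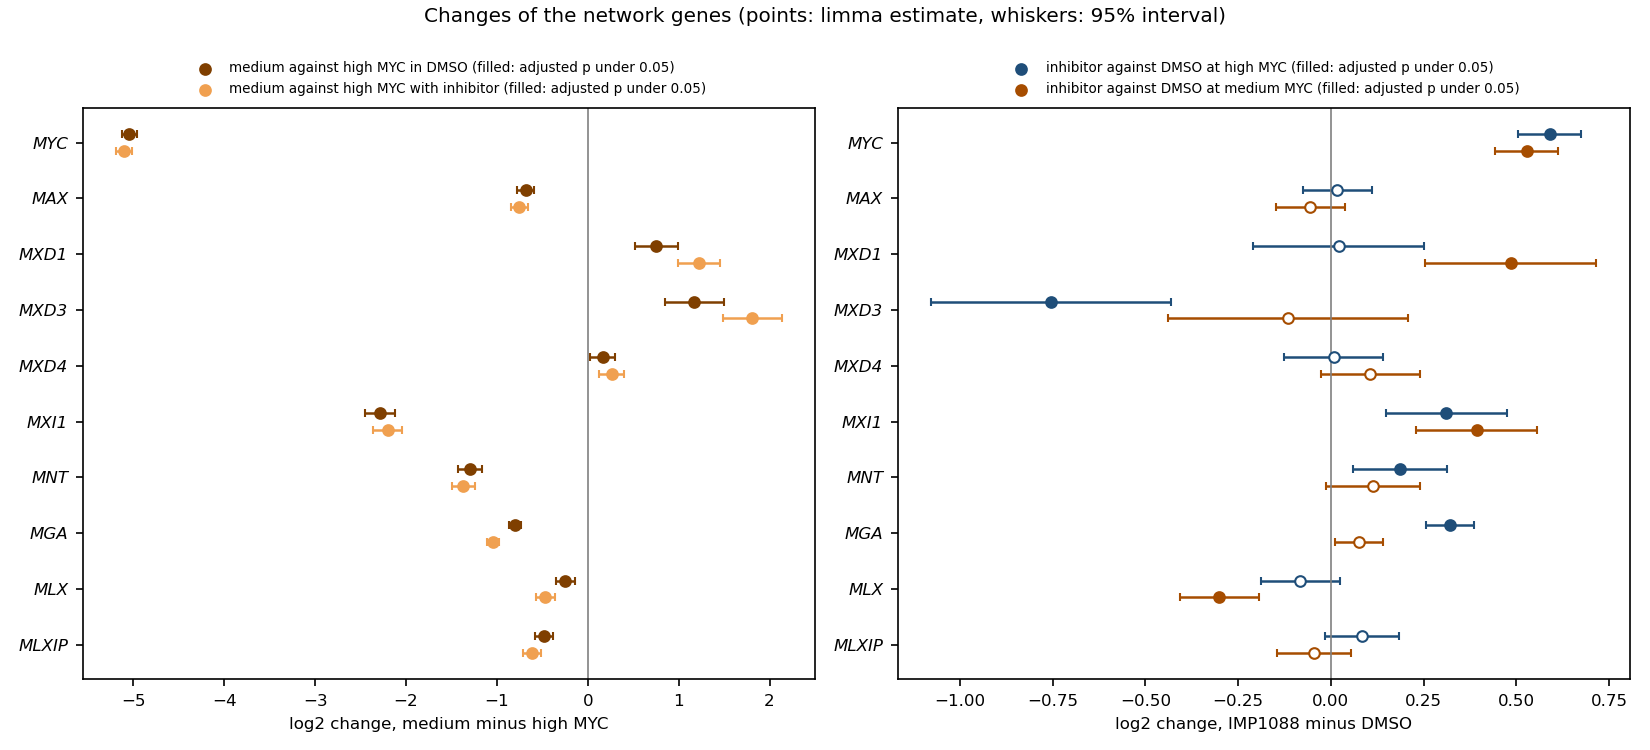
Log2 changes of the 10 network genes from the limma fit, medium minus high MYC on the left and IMP1088 minus DMSO on the right, with intervals (95%) as whiskers. Filled points passed an adjusted p of 0.05. MYC changed by -5.04 and MXI1 by -2.28 between MYC levels in DMSO, and MXD3 by -0.75 with IMP1088 at high MYC.

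Levels of different genes were compared per kilobase of merged exon, using exon lengths of GENCODE release 29. These lengths merge the exons of all annotated transcripts of a gene, from 3001 bases for MYC to 17651 for MGA. They can exceed the length of the transcripts expressed, so ranks and shares per kb depend on them. At high MYC with DMSO, MYC stood at 10546 ± 709.7 normalized counts per kb (SD, n = 4), followed by MGA at 196 ± 5.6 and MAX at 193 ± 5.4, which overlapped with each other. MLX came next at 133 ± 9.87, then MXI1, MXD4, MLXIP and MNT between 85.5 and 103, each overlapping with the next. MXD3 and MXD1 were lowest, at 11.8 ± 1.64 and 9.83 ± 1.42. At medium MYC with DMSO, MYC was still first at 319 ± 16.2 per kb, while MXI1 had gone from the fifth to the ninth place at 21.1 ± 2.52, overlapping with MXD1 at 16.6 ± 1.43 in the last.

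Set against MAX and per kb of exon, the pool of partners was dominated by MYC at high MYC. At medium MYC in DMSO it was divided about evenly between MYC and the others. This even split depends on the division by exon length. By mean normalized counts MGA alone exceeded MYC in that group, at 1990 against 959. MYC made up 95.5 ± 0.143% of the summed per-kb level of the MAX partners (MYC, MXD1, MXD3, MXD4, MXI1, MNT and MGA) at high MYC with DMSO and 96.5 ± 0.0897% with IMP1088 (SD, n = 4). At medium MYC the share was 50.1 ± 1.02% with DMSO and 57.1 ± 1.18% with IMP1088. The partners other than MYC, per unit of MAX, came to 2.59 ± 0.167 at high and 2.64 ± 0.148 at medium MYC with DMSO, less apart than the spread between libraries. With IMP1088 this ratio was 2.98 ± 0.112 and 2.99 ± 0.0910 at high and medium MYC. MYC per MAX was 54.6 ± 4.83 and 2.65 ± 0.173 at high and medium MYC with DMSO. These ratios are descriptions over chosen members and carry no test, and they are of RNA, not of protein.

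Within the MXD family the shares per kb shifted from MXI1 to the other 3 genes. By normalized counts, without division by length, MXD4 was above MXI1 in all 4 groups (669 against 475 at high MYC with DMSO), and per kb these genes overlapped in that group. MXI1 made up 47 ± 1.95% of the family's per-kb level at high MYC with DMSO and 12.4 ± 1.6% at medium MYC. MXD4 went from 43.2 ± 2.06% to 62.2 ± 1.83%, MXD3 from 5.37 ± 0.697% to 15.6 ± 0.842% and MXD1 from 4.49 ± 0.733% to 9.75 ± 0.702%. The family's sum was 219.6 ± 10.4 normalized counts per kb at high and 171 ± 12.3 at medium MYC with DMSO, and 240.1 ± 7.19 and 190.0 ± 8.12 with IMP1088. In the MLX branch, MLXIP per MLX was 0.684 ± 0.0240 and 0.581 ± 0.0272 at high and medium MYC with DMSO, and 0.768 ± 0.0157 and 0.693 ± 0.0204 with IMP1088.

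**Figure D3:**
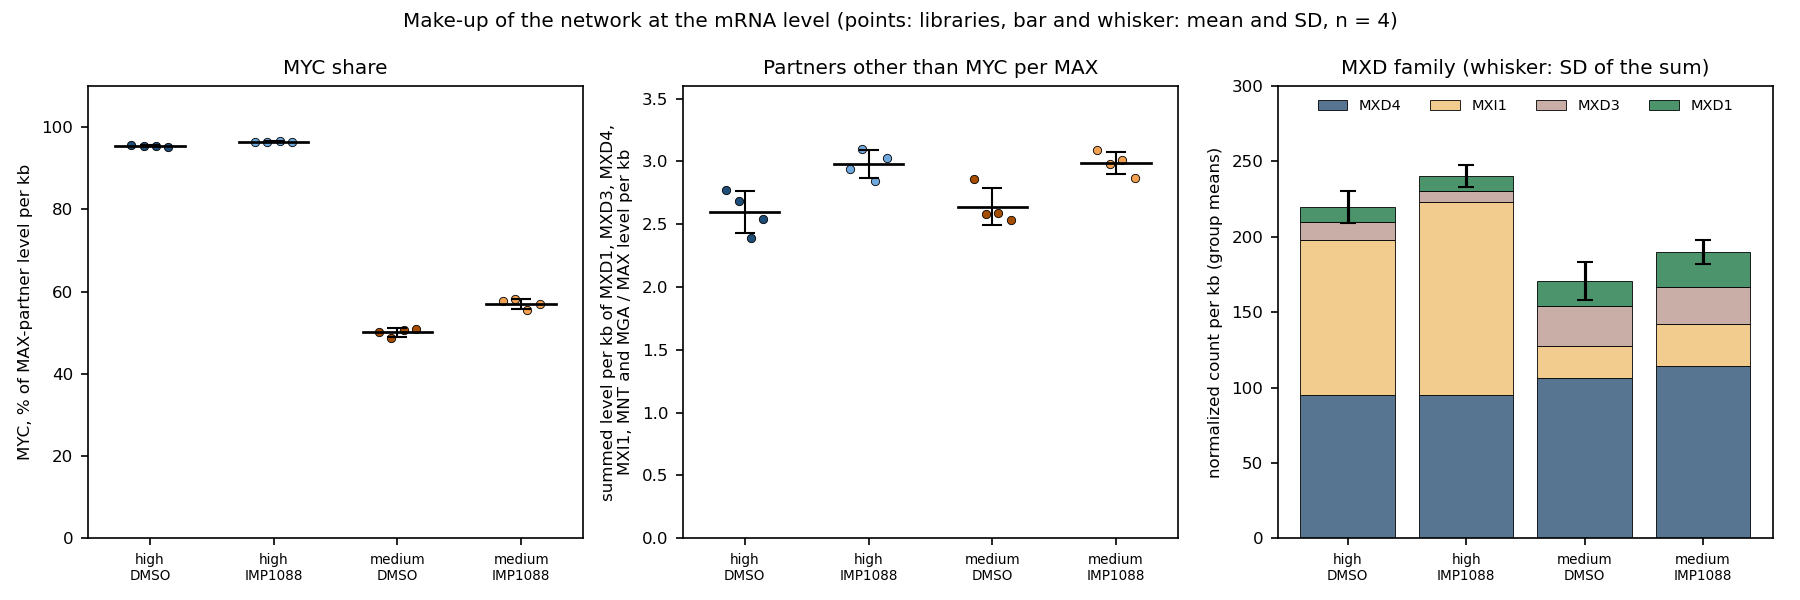
Make-up of the network per kb of exon in the 4 groups. The left panel gives MYC as a percentage of the MAX partner level, the middle panel the partners other than MYC divided by MAX, with libraries as points and mean and SD as bar and whisker (n = 4), and the right panel the stacked group means of the MXD family with the SD of their sum. MXI1 makes up 47% of the stack at high MYC and 12.4% at medium MYC with DMSO.

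Genes with the pattern most like each member were found by the root mean square (RMS) difference of centred log2 values over the 16 libraries, among the 10902 genes whose mean reached 50. For MYC, whose own RMS deviation about its mean was 2.55, the closest were DDN (0.373), BZW2 (0.374), TERT (0.448), NPW (0.493) and CAMKV (0.527). TERT encodes the catalytic subunit of telomerase and BZW2 a translation regulator. These genes resembled MYC between MYC levels but did not share the size of its rise with IMP1088. Their changes with IMP1088 ran from -0.135 (NPW) to 0.0665 (DDN) at high MYC, beside 0.59 for MYC. At medium MYC they ran from -0.0452 (BZW2) to 0.257 (NPW), beside 0.53. For MXI1 the closest were TWNK, the mitochondrial helicase (0.100), and EXOSC5, an exosome subunit (0.133). For MNT they were PPRC1 (0.0718), a coactivator of mitochondrial gene expression, and NOL6 (0.0792), a nucleolar protein. MAX was closest to CS, citrate synthase (0.0471), and ANAPC1 (0.0548), and MGA to ZNF121 (0.0637) and SYNE2 (0.0702). For the genes that rose at medium MYC, the closest were CCPG1 (0.145) and GOLGA2 (0.149) to MXD1, RAB11FIP1 (0.180) and HELZ2 (0.192) to MXD3, and TBC1D20 (0.0671) and TSC2 (0.0722) to MXD4. MLX was nearest YEATS2 (0.0575) and SLC12A7 (0.0582), and MLXIP nearest AKR1B1 (0.0577) and STOML2 (0.0639). The points share 4 groups and their libraries, so the values describe likeness only.

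Direct MYC target genes fell nearly as a whole with the lower MYC level. Of 36 tested, 34 fell, 1 rose and 1 did not pass between MYC levels in DMSO, with a median of -1.39, where 37.3% of all tested genes fell and 38.9% rose. TERT fell from 494 ± 26.9 to 19.5 ± 5.07 normalized counts (SD, n = 4; log2 change -4.62, SE 0.14, adjusted p = 4.96e-18). SRM, which makes spermidine, fell by 2.22 and the ribosome biogenesis factor NOP16 by 2.19 on the log2 scale (adjusted p = 1.13e-18 and 7.91e-17). The gene that rose was CCND2, cyclin D2, from 5714 ± 40.8 to 13602 ± 82.9 (log2 change 1.25, SE 0.0227, adjusted p = 1.47e-21), and TFRC, the transferrin receptor, did not pass (0.0381, adjusted p = 0.289). Both are named after their values were seen. With IMP1088 at high MYC, 5 of the 36 rose and 4 fell (median 0.0400), shares near those of all tested genes (10.5% higher, 16.3% lower). At medium MYC 12 rose and 5 fell (median 0.0452), beside 11.7% and 14.6% of all tested genes. The glycolytic genes LDHA and ENO1 fell at both, LDHA by 0.25 at high and 0.67 at medium MYC and ENO1 by 0.20 and 0.44, whereas the nucleolar gene GNL3 rose by 0.17 and 0.38.

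Among 8 tested genes that MYC represses together with ZBTB17 (MIZ1), 5 rose and 3 did not pass the limma threshold between MYC levels in DMSO, where 38.9% of all tested genes rose, and the median was 0.24. The cell cycle inhibitor CDKN2B had 2 reads over the 4 high MYC DMSO libraries and 93 over the 4 medium MYC ones. NDRG1, a stress-responsive differentiation gene, had 6 and 119. CDKN2B and NDRG1 passed the filter on the mean only through the medium MYC groups. At high MYC with DMSO and IMP1088 their means were 0.464 and 0.277 for CDKN2B and 1.49 and 4.12 for NDRG1. Genes this low at high MYC could be tested only if they were higher at medium MYC. Their rises are in the count of 5 but are not independent of the filter. CDKN1A, which encodes the inhibitor p21, rose from 1023 ± 55.6 to 1372 ± 74.4 normalized counts (log2 change 0.42, SE 0.0457, adjusted p = 2.65e-08). IMP1088 raised the DNA damage response gene GADD45A at high (log2 change 0.47, SE 0.0593, adjusted p = 3.65e-06) and at medium MYC (log2 change 0.36, SE 0.0593, adjusted p = 7.09e-05), and at medium MYC it also raised VAMP4 by 0.42 and CDKN1A by 0.13 and lowered RABGAP1L by 0.16 (adjusted p = 0.0222, 0.0441 and 0.0202).

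**Figure D4:**
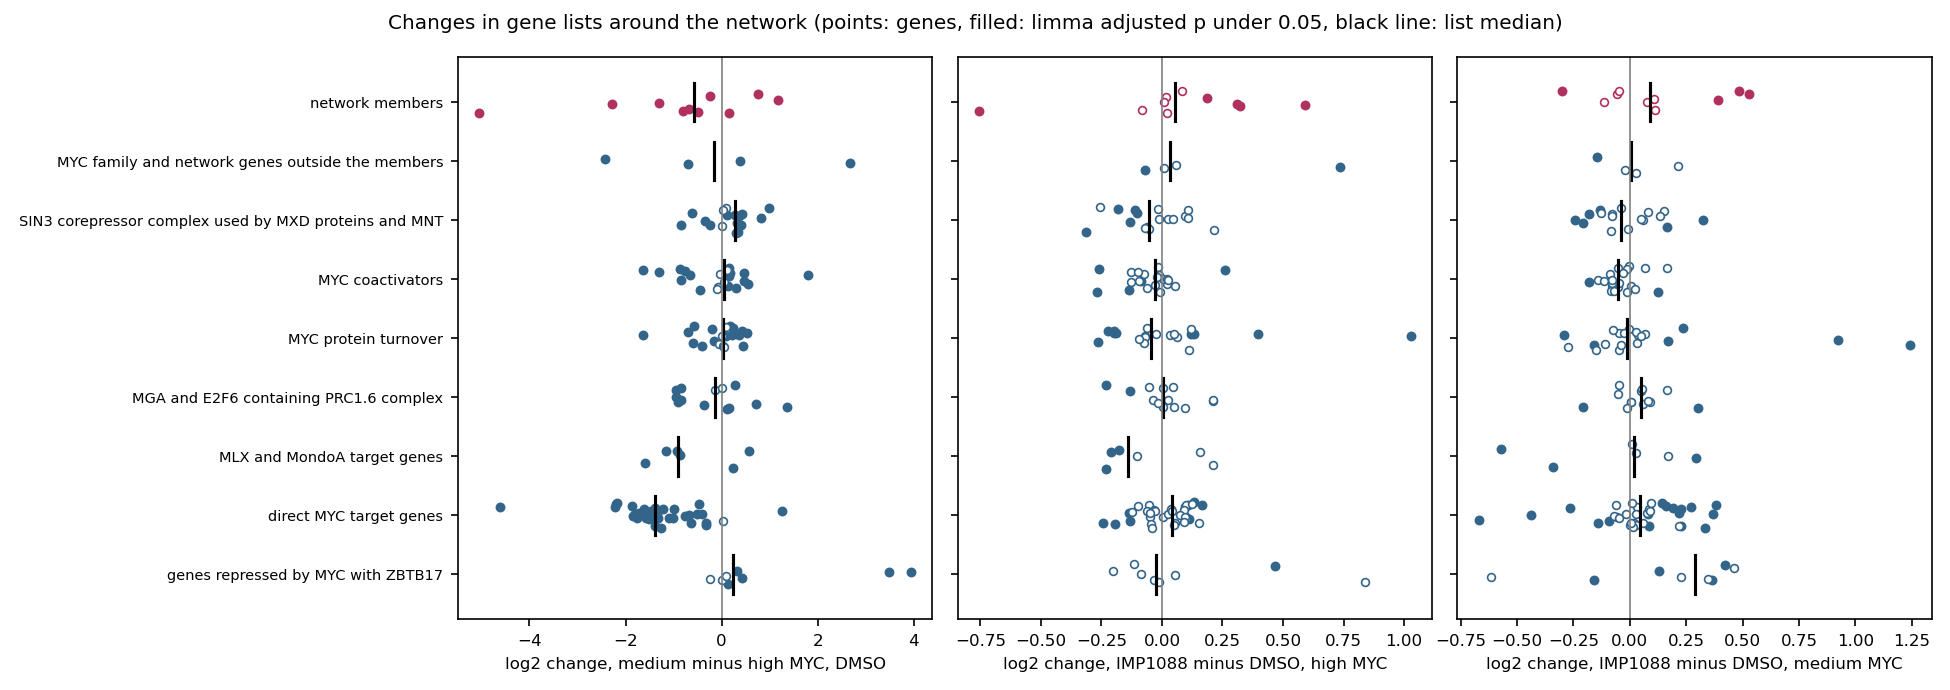
Log2 changes of the network members and of 8 gene lists around them, medium minus high MYC in DMSO (left) and IMP1088 minus DMSO at high (middle) and medium MYC (right). Points are genes, filled where the limma adjusted p was under 0.05, and black lines are list medians. Direct MYC targets have a median of -1.39 between MYC levels and of 0.0400 and 0.0452 with IMP1088.

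Genes of the machinery that the network's proteins recruit were called in both directions, as were genes in general. In the SIN3 complex, used by MXD proteins and MNT, 10 of 17 genes rose and 4 fell between MYC levels in DMSO (median 0.29), beside 38.9% and 37.3% of all tested genes. The subunits ARID4B and SAP130 rose by 0.98 and 0.82, and the deacetylase HDAC2 fell by 0.84 (adjusted p = 3.83e-11, 6.49e-12 and 7.00e-12). With IMP1088, 5 of the 17 fell at high MYC, SAP130 by 0.32, BRMS1 by 0.18 and HDAC1 by 0.13 among them, and at medium MYC 2 rose and 4 fell. Over all tested genes 16.3% fell at high MYC, and 11.7% rose and 14.6% fell at medium MYC. Of 21 MYC coactivators, 9 rose and 7 fell between MYC levels in DMSO (median 0.0525), shares near the 38.9% and 37.3% of all tested genes. The paralogous acetyltransferases KAT2B and KAT2A went opposite ways, KAT2B from 108 ± 12.1 to 377 ± 23.3 and KAT2A from 859 ± 38.9 to 276 ± 23.5 normalized counts (adjusted p = 1.89e-14 and 2.52e-16). RUVBL1, an ATPase of the TIP60 complex, fell by 1.3. IMP1088 raised 1 and lowered 4 coactivators at high MYC and raised 1 and lowered 1 at medium MYC, beside 10.5% higher and 16.3% lower at high and 11.7% and 14.6% at medium MYC over all tested genes. CCNT1, the cyclin of the elongation factor P-TEFb, rose at both levels (by 0.26 and 0.12).

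Of the 13 genes of the PRC1.6 complex other than MGA and MAX, 5 rose and 6 fell between MYC levels in DMSO (median -0.14), near the 38.9% and 37.3% of all tested genes. HDAC1 and HDAC2 are also in the SIN3 list and WDR5 is also in the coactivator list. RYBP, a Polycomb subunit, rose from 311 ± 23.6 to 799 ± 68.6 normalized counts, and CBX3 and TFDP2, the dimerisation partner of E2F proteins, fell by 0.95 and 0.94. With IMP1088, 2 of the 13 fell at high MYC, and 1 rose and 1 fell at medium MYC. Over all tested genes 16.3% fell at high MYC, and 11.7% rose and 14.6% fell at medium MYC. Of the genes in this list, RING1 fell at high MYC (log2 change -0.23, SE 0.0651, adjusted p = 0.0105) and TFDP2 rose at medium MYC (log2 change 0.30, SE 0.0352, adjusted p = 1.13e-06).

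Among genes that act on MYC protein stability, the kinases PIM1 and PIM2 rose with IMP1088 at both MYC levels. PIM1, a kinase that phosphorylates MYC, rose with IMP1088 from 184 ± 4.63 to 375 ± 4.29 normalized counts at high MYC (log2 change 1.03, SE 0.0517, adjusted p = 5.32e-12) and from 251 ± 9.22 to 478 ± 22.9 at medium MYC (log2 change 0.92, SE 0.0517, adjusted p = 1.43e-11). PIM2, its relative, rose from 773 ± 22.7 to 1018 ± 31.7 at high and from 473 ± 23.8 to 1122 ± 26.7 at medium MYC, and the response was larger at medium MYC (difference -0.85, SE 0.0573, adjusted p = 2.08e-09). In all, 4 of 20 turnover genes rose and 5 fell at high MYC, and 4 rose and 2 fell at medium MYC, beside 10.5% higher and 16.3% lower at high and 11.7% and 14.6% at medium MYC over all tested genes. Between MYC levels in DMSO 8 rose and 7 fell (median 0.0383), shares near those of all tested genes (38.9% and 37.3%). USP36, a nucleolar deubiquitinase of MYC, fell from 1578 ± 51.4 to 509.9 ± 19.3 (adjusted p = 5.71e-20).

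Targets of the MLX and MLXIP pair were called in both directions. Between MYC levels in DMSO 2 of 6 rose and 4 fell (median -0.90), beside 38.9% and 37.3% of all tested genes. TXNIP, the inhibitor of glucose uptake that is the best known of these targets, averaged 1107 ± 32 normalized counts at high MYC and 1659 ± 85.6 at medium MYC with DMSO and rose (log2 change 0.58, SE 0.0377, adjusted p = 5.42e-12). Its relatives ARRDC3, ARRDC2 and ARRDC4 fell by 1.6, 1.16 and 0.87 on the log2 scale. IMP1088 lowered TXNIP at high MYC (log2 change -0.23, SE 0.0377, adjusted p = 8.44e-05), while at medium MYC its change was 0.0105 (adjusted p = 0.877). HK2, hexokinase 2, fell with IMP1088 at both levels, from 2244 ± 41.9 to 1939 ± 8.43 at high and from 1181 ± 38.3 to 796 ± 52.3 at medium MYC. PFKFB3 fell at both levels as well (log2 change -0.18 and -0.34), and ARRDC3 rose at medium MYC (log2 change 0.29). With IMP1088, 3 of the 6 targets fell at high MYC, and 1 rose and 2 fell at medium MYC. Over all tested genes 16.3% fell at high MYC, and 11.7% rose and 14.6% fell at medium MYC. Of the other network genes tested, TFAP4, an E-box factor that MYC activates, fell from 589 ± 54.8 to 109 ± 19.5 between MYC levels in DMSO (log2 change -2.43, SE 0.0957, adjusted p = 8.12e-16), and MYCBP, which encodes a MYC-binding protein, fell by 0.70. Exons of many of these genes outside the network overlap those of another gene, and whether the counting used strand is not given in the sources used here, so part of their reads may belong to a neighbour.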

How the data were processed

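Gene expression was measured by RNA-seq in 16 libraries, grouped by the labels into 4 groups of 4. Per the labels' protocols, RNA came from a QIAGEN miRNeasy kit, cDNA from a Nugen kit and reads from an Illumina HiSeq. The submitters' processing notes name STAR 2.5.2a, RSEM 1.2.31, DESeq2 1.16.1 and GRCh38, without roles. Annotation release and strand use are not given in the sources used here. The authors deposited a non-negative expression signal per Ensembl identifier, which they call normalized counts. Within each library 100% of these values were whole multiples of 1 step (relative tolerance 1e-06), so whole reads were recovered, and the steps matched median-of-ratios factors (0.858 to 1.33). Intervals cover the spread between libraries, and detection limits cover counting error only.

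Symbols were matched for 56948 identifiers, and 57447 were found in GENCODE 29 (GRCh38), the source of positions and exon lengths. limma 3.58.1 (R 4.3.3, mean trend, 4 group means in one fit) was run on log2(value + 1) for the 13765 genes whose mean reached 10, two-sided, with Benjamini-Hochberg adjustment and a threshold of 0.05. All 10 members passed this filter. Members and lists were chosen with earlier results of these data known, so no list received a test. The genes named were the members, up to 3 genes of a list with the largest called change per comparison, and MYCN, MYCL, MLXIPL, TXNIP and ARRDC4; not every gene so selected is given. Outside this rule, CCND2 and TFRC were chosen with their values in view, and CDK4, NOLC1 and NCL because their response differed between MYC levels. The fit was tested on simulated data. Alternatives were other scalings, pseudocounts of 0.1 and 10, no filter and a mean filter of 100, no trend, GC correction, replicate blocks, each library left out, and, on the recovered reads, DESeq2 1.42.0 and edgeR 4.0.16. At high MYC with IMP1088 they called 3165 and 3703 genes, beside 3689 by limma.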

Additional observations from a re-analysis of the deposited data

Results flagged for a closer look

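In 3 of 40 groups of network values, 1 library lay far from the other 3. MXD3 at medium MYC with DMSO had its lowest library at 119.8 normalized counts (replicate 4), a gap of 0.907 of the group's range. MXD4 at high MYC with IMP1088 had its highest at 689 (replicate 4), a gap of 0.879. MLXIP at medium MYC with IMP1088 had its highest at 938 (replicate 3), a gap of 0.863. By Dixon's rule, which sets the limit used, chance alone puts about 1 in 20 groups past it.

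The response to IMP1088 differed between MYC levels, by the interaction term of the limma fit, for MGA in the network and for 14 of 122 tested genes of the lists around it, beside 8.63% of all tested genes, so the number of list genes is near the background. The differences are high minus medium MYC on the log2 scale. MGA differed by 0.25 (adjusted p = 7.86e-04). LDHA differed by 0.42 (adjusted p = 2.47e-06), HK2 by 0.36 (adjusted p = 1.47e-04) and ENO1 by 0.24 (adjusted p = 1.47e-04), each lowered more by IMP1088 at medium MYC. PPAN, a ribosome biogenesis gene, differed by 0.34 (adjusted p = 0.00494). The kinase genes PIM2 and AURKA differed by -0.85 (adjusted p = 2.08e-09) and -0.22 (adjusted p = 0.0141). SHMT2, a one-carbon enzyme gene of mitochondria, differed by -0.42 (adjusted p = 4.21e-06) and CDK4 by -0.21 (adjusted p = 0.00686). The nucleolar genes NOLC1, GNL3 and NCL differed by -0.23 (adjusted p = 7.52e-04), -0.21 (adjusted p = 0.0155) and -0.12 (adjusted p = 0.0431). TFDP2 and RBBP4, subunits of chromatin complexes, differed by -0.34 (adjusted p = 1.01e-04) and -0.18 (adjusted p = 0.00130). TXNIP differed by -0.24 (adjusted p = 0.00522).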

How the results depend on the processing

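Of 1310 alternative values for 55 results, 1264 kept their direction and their side of the threshold, or stayed within 1.5 times a count, and all alternatives for MYC did. The sign changed, with no call on either side, for MXD1 with IMP1088 at high MYC without high MYC DMSO replicate 1 (-0.0487) or 4 (-0.0279; range over single libraries -0.0487 to 0.0838), for MXD4 there without high MYC DMSO replicate 3 (-0.0351) or high MYC IMP1088 replicate 4 (-0.00545; range -0.0351 to 0.0523), for MLXIP with IMP1088 at medium MYC after GC correction, with or without the block (0.00613), and for the MXI1 difference in response without medium MYC DMSO replicate 1 (0.00682; range -0.122 to 0.00682). The cause was not tested. The number of members whose response differed between MYC levels, 1 as reported, was 3 after GC correction, 2 with a nested replicate block (1 higher, 1 lower), 2 with GC correction and replicate block together, and 1 to 3 without single libraries, with MXD1, MXD3 or MLX added to MGA. GC correction moved the median of all tested genes between MYC levels from 0.0174 to -0.0920 in DMSO and from 0.0210 to -0.111 with IMP1088, and added MXD4 and MNT to the members higher with IMP1088 at medium MYC (adjusted p = 0.00236 and 0.00278) and MLXIP at high MYC (adjusted p = 0.00263). MGA passed at medium MYC with equal library totals, quantile normalization and TMM factors (adjusted p = 0.0218, 0.00424 and 0.0468), and MLXIP at high MYC with quantile normalization (adjusted p = 0.0499). With no mean trend the MNT call at high MYC and the MXD4 call between MYC levels in DMSO were lost (adjusted p = 0.0512 and 0.0560), and with no filter the first was lost as well (adjusted p = 0.0510). The labels do not say whether same-numbered libraries were paired. Correlations of their deviations ran from -0.154 to 0.239, and between 0 and 2 of the 8 libraries in a comparison correlated best with their own number. With so few libraries these values cannot exclude a pairing. With a replicate block the members called remained 5, 4, 10, 10 and 1 in number. Depth limits MXD1 and MXD3 most, with 24 to 167 reads per library.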
